A study of Sus scrofa with 4 samples.

Results

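The genes described here are the protein-coding genes of the pig whose symbols name an enzyme that writes or removes methyl groups on histone lysines or on DNA, or that removes acyl groups from proteins. They were chosen by symbol alone (KDM, KMT, SETD, EZH, EHMT, DNMT, TET, HDAC and SIRT with their numbers and letters), and 61 of the 16192 protein-coding genes in the files carried such a name. The 61 genes comprised 21 lysine methyltransferases, 15 lysine demethylases, 7 enzymes of DNA methylation and its oxidation, 11 deacetylases of the HDAC family and 7 sirtuins.

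Preadipocytes were isolated from the subcutaneous fat of 3 male Chinese Erhualian piglets, 5 days old, and differentiated in culture. D0 cells were confluent and had not received the hormone cocktail, D2 cells had been given dexamethasone, 3-isobutyl-1-methylxanthine and insulin since D0, D4 cells had been kept with insulin alone since D2, and D8 cells had been kept in growth medium since D4. For each stage, RNA of the 3 piglets was mixed in equal amounts into 1 library of rRNA-depleted total RNA, which was prepared with a strand-specific kit. There were therefore no replicates. Every difference given below is between 2 libraries. A stage cannot be told apart from its library, and p-values were not computed.

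Histone lysine methyltransferases of the KMT, SETD, EZH and EHMT families add methyl groups from S-adenosylmethionine, and the KDM enzymes take them off, either with a flavin cofactor (KDM1A, KDM1B) or with iron and 2-oxoglutarate. DNMT enzymes methylate cytosine in DNA, TET enzymes oxidise methylcytosine, HDAC enzymes remove acetyl groups with a metal ion, and sirtuins do so at the expense of NAD+. In the adipocyte lineage these enzymes are known as parts of the machinery that silences progenitor and cell cycle genes and opens the enhancers used by PPARG and the C/EBP factors.

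The values were FPKM, the fragments on a gene per kilobase of its length, scaled to the fragments counted in the library. Levels can be compared between genes only as far as the length used fits the transcripts present. The libraries held 54128151 to 75387428 counted fragments, so that 1 FPKM on a transcript of 1 kb stood for 54.1 to 75.4 reads. RNA of the signal recognition particle stood at 441065 and 443535 FPKM at D0 and D4 and at 607260 and 584856 FPKM at D2 and D8. The 12 reliably expressed adipocyte markers of a list of 16 were all at least 2-fold higher at D4 and D8 than at D0 (against 10.4% and 3.6% of all reliably expressed mRNAs). The list summed to 167, 784, 2970 and 2997 FPKM at D0, D2, D4 and D8. Markers of smooth muscle and myofibroblasts summed to 6239, 669, 518 and 4834 FPKM, of which ACTA2 alone held 2907, 324, 225 and 2762 FPKM. All 6 reliably expressed ones were lower at D8 than at D0 (against 68.5% of all reliably expressed mRNAs), ACTA2 by a log2 ratio of -0.07. DES (436, 37.7, 4.05 and 35.7 FPKM) and CNN1 (94.3, 4.22, 2.39 and 24.2 FPKM) were called so, 2 of 6 against 3.68% of all reliably expressed mRNAs. Markers of proliferation (23 genes) summed to 320, 133, 269 and 247 FPKM. Preadipocyte and stromal markers (10 of 11 listed in the files) summed to 1135, 2275, 3037 and 2298 FPKM, highest at D4 and lower at D8. COL3A1 alone stood at 491, 1286, 2058 and 1624 FPKM. Of the 9 reliably expressed, 4 were called higher and 1 lower at D4 vs D0 (against 10.4% and 8.81% of all reliably expressed mRNAs). At D8 vs D4, 0 were called higher and 4 lower (against 4.43% and 10.1%), and at D8 vs D0 2 higher and 2 lower (against 3.6% and 3.68%). Markers of skeletal muscle (5 of 9 listed in the files) and erythroid cells (1 of 4) were under 1 FPKM in every library. Among the endothelial (7 of 8) and leukocyte (9 of 11) markers, PECAM1 reached 2.56 FPKM, whereas CDH5 and PTPRC stayed under 0.1 FPKM. The 2 reliably expressed leukocyte markers differed, with CD14 at 3.14, 5.64, 7.54 and 2.78 FPKM, highest at D4. C1QA, at 1.05, 1.28, 0.582 and 1.37 FPKM, was lowest at D4. The keratin gene KRT5 stood at 44.4, 107, 180 and 275 FPKM and KRT8 at 4.46, 8.25, 15.8 and 25.1 FPKM, while KRT18, EPCAM and CDH1 were under 1 FPKM throughout. How far these markers have a part in the results below was not tested, and in cultures of this kind fewer cells of a type and less RNA per cell cannot be told apart.

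Of the 61 enzyme genes, 47 were reliably expressed, that is, they had at least 1 FPKM in at least 3 of the 4 libraries. A gene is called different here when its ratio between 2 libraries, on log2(FPKM + 0.01), was at least 2-fold in either direction. In at least 1 of the 5 comparisons (each later stage with the one before it, and D4 and D8 with D0) 11 of the 47 enzymes (23.4%) were called, against 29.9% of the 9191 reliably expressed mRNAs. The share called was thus below that of mRNAs at large, a difference that was not tested, and the ratio between the highest and the lowest library had a median of 1.68 for the enzymes and 1.64 for all mRNAs.

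**Figure D1:**
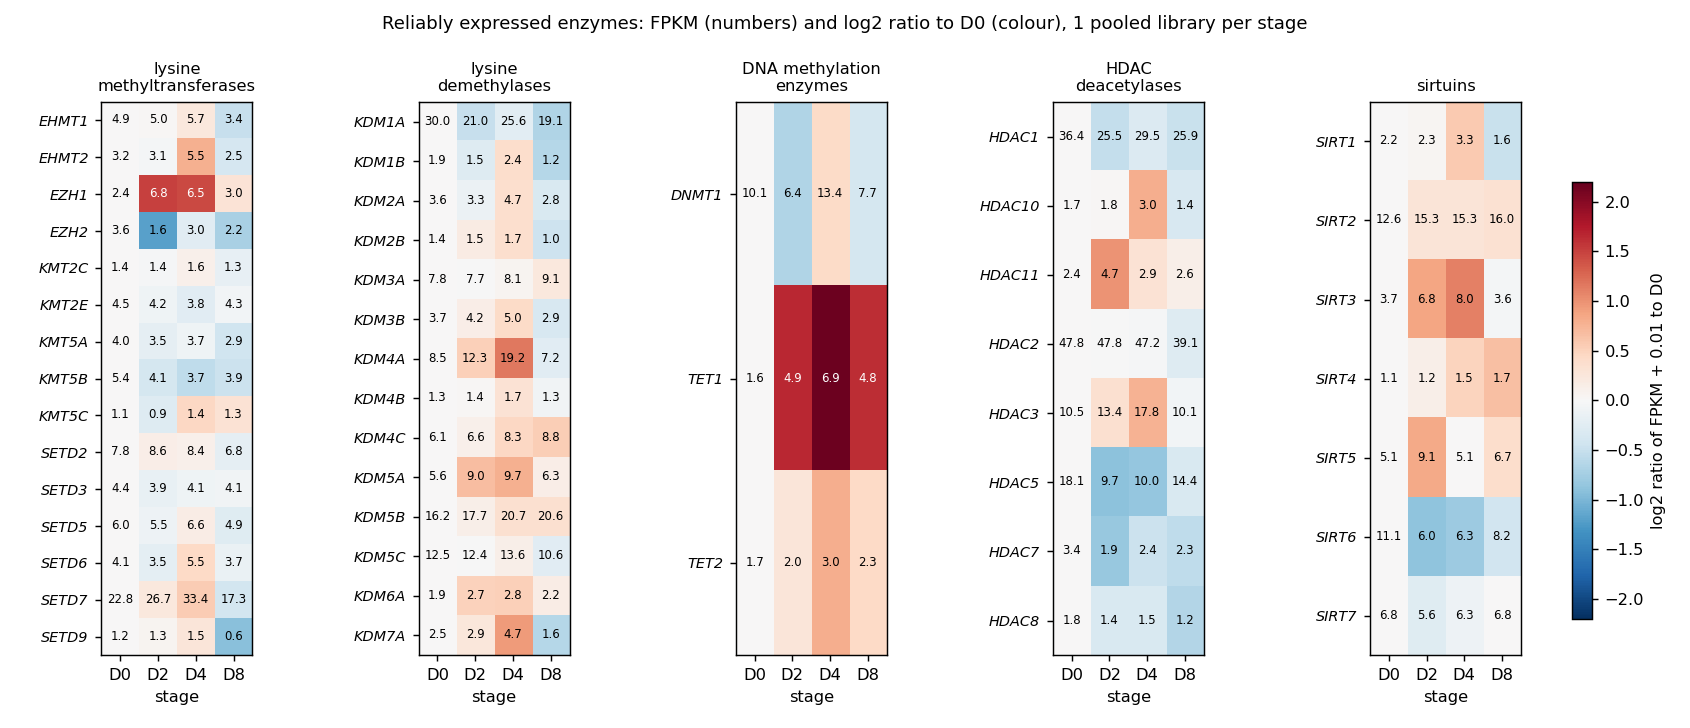
FPKM (printed numbers) of the 47 reliably expressed enzymes in the libraries D0, D2, D4 and D8 (columns), grouped by role, with colour giving the log2 ratio to D0. TET1 (1.55 to 6.94 FPKM) and EZH1 (2.38 to 6.76 FPKM) show the strongest red, and EZH2 at D2 (1.55 FPKM) the strongest blue.

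The D4 library held the highest FPKM of 26 of the 47 enzymes (55.3%), against 37.3% of all reliably expressed mRNAs, and the D8 library held the lowest FPKM of 23 of them (48.9%, against 37.5%). With the libraries scaled by the median of ratios, D4 was the highest for 22 enzymes (46.8%, against 26.0% of all mRNAs so scaled) and D8 the lowest for 20 (42.6%, against 22.3%). With equal sums over protein-coding genes these numbers were 25 (53.2%, against 34.2%) and 26 (55.3%, against 42.5%). The enzymes highest at D0 numbered 12 (25.5%, against 36.5%), at D2 4 (8.51%, against 16.7%) and at D8 5 (10.6%, against 9.51%). Among those highest at D4 were 11 of the 14 reliably expressed demethylases and all 3 reliably expressed enzymes of DNA methylation (DNMT1, TET1 and TET2), whereas 5 of the 8 HDAC enzymes were highest at D0.

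By comparison, 3 enzymes were called at D2 vs D0 (6.38% of 47, against 16.8% of all mRNAs), with 2 higher (against 6.67%) and 1 lower (against 10.1%). At D4 vs D2, 1 enzyme was called, as higher (2.13%, against 5.08%, or 4.24% higher and 0.838% lower). The D8 vs D4 comparison had 8 called enzymes, all lower (17.0%, against 14.5%, or 4.43% higher and 10.1% lower). At D4 vs D0, 4 enzymes were called, all higher (8.51%, against 19.2%, or 10.4% higher and 8.81% lower), and at D8 vs D0 1 enzyme, as higher (2.13%, against 7.28%, or 3.6% higher and 3.68% lower). The last 2 comparisons and D2 vs D0 share the D0 library, and D4 vs D2, D8 vs D4 and D4 vs D0 share the D4 library. The D2 library enters both D2 vs D0 and D4 vs D2, and the D8 library both D8 vs D4 and D8 vs D0.

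**Figure D2:**
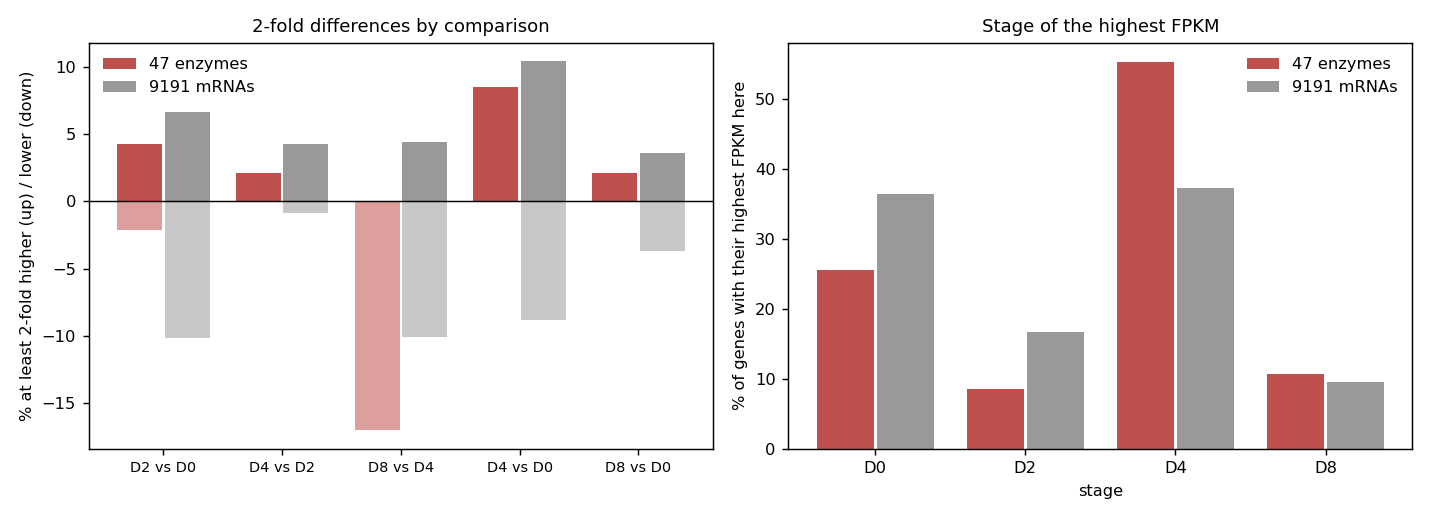
Left, percent of the 47 enzymes (red) and of the 9191 reliably expressed mRNAs (grey) that were at least 2-fold higher (above 0) or lower (below 0) in each comparison; right, percent with their highest FPKM at each stage. The enzymes pass the grey bar for lower values at D8 vs D4 (17.0% against 10.1%) and for a highest value at D4 (55.3% against 37.3%).

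The median log2 ratio of the 47 enzymes was 0.03 at D2 vs D0, 0.23 at D4 vs D2 and -0.36 at D8 vs D4. Against D0 it was 0.32 for D4 and -0.24 for D8. Over all 9191 mRNAs it was -0.03, 0.09, -0.21, 0.06 and -0.18, respectively. Scaling by the median of ratios moved the median of all mRNAs to -0.03 at D4 vs D2, 0.02 at D8 vs D4 and -0.03 at D8 vs D0, and that of the enzymes to 0.11, -0.13 and -0.09. With that scaling 31 of the 47 enzymes were higher at D4 than at D2, in place of 39, and 31 were lower at D8 than at D4, in place of 36. The number called at D8 vs D4 was then 2, KDM4A and KDM7A, both lower (against 5.68% of all mRNAs so scaled).

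Polycomb repressive complex 2 (PRC2) places the repressive methyl mark on histone H3, and its catalytic subunit is either EZH2, which is typical of dividing cells, or EZH1, which is typical of resting ones. EZH1 (chromosome 12, bases 20107744 to 20139764 of Sscrofa11.1) stood at 2.38, 6.76, 6.51 and 2.95 FPKM at the 4 stages in order, as are all sets of 4 values below. It was high at D2 and D4 and close to its D0 level at D8. The log2 ratio of D2 to D0 was 1.499, with a 95% interval from counting error alone of 1.346 to 1.66, that of D4 to D0 was 1.45 (1.30 to 1.60), and that of D8 to D4 was -1.14 (-1.30 to -0.98).

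EZH2 (chromosome 9, bases 109384976 to 109450943) was instead lowest at D2, with 3.56, 1.55, 3.00 and 2.17 FPKM. The log2 ratio of D2 to D0 was -1.19 (-1.39 to -1.0003), and that of D4 to D2 was 0.94 (0.75 to 1.15), just short of a call. The level of EZH1 relative to EZH2 was therefore 0.670 at D0 (95% counting interval 0.599 to 0.749), 4.35 at D2 (3.81 to 4.97), 2.17 at D4 (1.98 to 2.38) and 1.36 at D8 (1.18 to 1.56), and these intervals do not overlap. Such a ratio within a library does not depend on how libraries are scaled. Proliferation markers were low in the same library as EZH2. Of 18 reliably expressed ones, 13 were called lower at D2 vs D0 (against 10.1% of all mRNAs) and 14 higher at D4 vs D2 (against 4.24%). CCNB1 stood at 43.8, 3.09, 11.6 and 25.9 FPKM and MCM3 at 5.97, 1.94, 14.9 and 5.47 FPKM. Whether the share of dividing cells has a part in the level of EZH2 was not tested.

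Among the partners of PRC2, 7 of a list of 10 were reliably expressed. The core subunits EED (8.43 to 9.21 FPKM) and RBBP4 (71.6 to 85.0 FPKM) stayed within narrow ranges, and SUZ12 was at 4.45, 4.98, 7.55 and 4.25 FPKM. Called lower at D4 vs D0 were 2 of the 7, the accessory subunits AEBP2, at 10.6, 5.21, 5.11 and 7.05 FPKM, and PHF1, at 3.45, 2.04, 1.51 and 2.06 FPKM. AEBP2 was also called lower at D2 vs D0, with a log2 ratio of -1.02 (-1.11 to -0.93), but not with scaling by the median of ratios (-0.97) or equal protein-coding sums (-0.91). Over all mRNAs 10.1% were called lower at D2 vs D0 and 8.81% at D4 vs D0.

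Of the lysine methyltransferases, 15 of 21 were reliably expressed. EZH1, EZH2, EHMT2 and SETD9, 4 of the 15, were called in at least 1 comparison, against 29.9% of all mRNAs. EHMT2 (chromosome 7, bases 23977683 to 23992673), which with its partner EHMT1 places a repressive mark on histone H3 in euchromatin, stood at 3.18, 3.09, 5.45 and 2.46 FPKM. Its D4 library was the high one, and D8 was lower than D4 by a log2 ratio of -1.15 (-1.30 to -1.01). EHMT1 itself, on an unplaced scaffold, stood at 4.89, 4.99, 5.72 and 3.45 FPKM, so that EHMT1 relative to EHMT2 was 1.54 at D0 (95% counting interval 1.42 to 1.67), 1.62 at D2 (1.47 to 1.78), 1.05 at D4 (0.982 to 1.12) and 1.404 at D8 (1.26 to 1.57). The pair thus came close to equal levels in the D4 library alone among the 4.

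SETD9 (chromosome 16, bases 35978960 to 35987161) was at 1.22, 1.27, 1.47 and 0.638 FPKM, and D8 was lower than D4 by a log2 ratio of -1.19 (-1.57 to -0.86). Between 89 and 282 reads stood behind its values. SETD7 (chromosome 8, bases 87478266 to 87527190), which methylates histone H3 and also other proteins, had the highest mean of the 21 methyltransferases, with 22.8, 26.7, 33.4 and 17.3 FPKM. At D8 vs D4 it was just short of a call, at a log2 ratio of -0.95 (-0.99 to -0.91). SETD2 (chromosome 13, bases 29884708 to 29996285), the enzyme that trimethylates histone H3 along transcribed genes, was second and held a narrow range with 7.82, 8.64, 8.40 and 6.80 FPKM.

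The other 8 reliably expressed methyltransferases were not called in any of the 5 comparisons. Their highest and lowest libraries differed by 1.12-fold (SETD3) to 1.68-fold (KMT5C), and they included the enhancer enzyme KMT2C (1.27 to 1.57 FPKM) and KMT5A, which monomethylates histone H4 (2.92 to 3.97 FPKM). By direction, 11 of the 15 were higher at D4 than at D2 (73.3%, against 62.5% of all mRNAs). At D8, 12 of 15 were lower than at D4 (80%, against 64.9%). With scaling by the median of ratios these numbers were 9 and 11 of 15. Among 10 reliably expressed lysine methyltransferases with other kinds of names, SMYD4 (1.02, 2.54, 2.09 and 1.29 FPKM) was called higher at D2 vs D0 and D4 vs D0 (against 6.67% and 10.4% of all mRNAs). NSD2 (2.16, 1.07, 1.38 and 1.05 FPKM) was called lower at D2 vs D0 and D8 vs D0 (against 10.1% and 3.68%). The NSD2 call at D2 vs D0 was lost with either of the other scalings. With scaling by the median of ratios the SMYD4 call at D4 vs D0 (0.96) and the NSD2 call at D8 vs D0 (-0.88) were lost too, so that SMYD4 at D2 vs D0 was the call that held in all 3 scalings. Of the 8 reliably expressed arginine methyltransferases and cofactors on a list of 10, 0 were called in any comparison (against 29.9% of all mRNAs), and with either of the other scalings at most 1 in a comparison. Of 9 reliably expressed partners of the KMT2 enzymes (COMPASS subunits), MEN1 (1.06, 1.56, 2.24 and 0.934 FPKM) and PSIP1 (3.90, 3.70, 4.71 and 2.16 FPKM) were called lower at D8 vs D4 (against 10.1% of all mRNAs), and MEN1 also higher at D4 vs D0 (against 10.4%). With scaling by the median of ratios MEN1 was still called at D8 vs D4 (-1.02), while PSIP1 at D8 vs D4 (-0.89) and MEN1 at D4 vs D0 (0.995) were not.

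Among the demethylases, 14 of 15 were reliably expressed, and all 14 were higher at D4 than at D2, by log2 ratios of 0.03 to 0.69 with a median of 0.28. Over all mRNAs 62.5% were higher at D4 than at D2. With the libraries scaled by the median of ratios the demethylases higher at D4 were 11 of 14 (against 4288 of 9191 mRNAs), and with equal protein-coding sums 13 of 14. At D8 vs D4, 12 of 14 were lower (11 of 14 by the median of ratios), against 64.9% of all mRNAs. KDM3A, KDM4C and KDM5B departed from the group in that their D8 libraries were close to or above D4.

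KDM4A (chromosome 6, bases 167597954 to 167642381), which removes repressive and elongation marks from histone H3, stood at 8.54, 12.3, 19.2 and 7.21 FPKM. It peaked at D4 and its D8 level was the lowest of the 4. Its log2 ratio at D4 vs D0 was 1.17 (1.11 to 1.23) and that of D8 to D4 was -1.41 (-1.49 to -1.34), and both were still past 2-fold with either of the other scalings. Its paralog KDM4C went on from 8.32 FPKM at D4 to 8.83 FPKM at D8, and KDM4B stayed between 1.27 and 1.67 FPKM.

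KDM7A (chromosome 18, bases 9581468 to 9664750), a PHD finger demethylase of repressive marks on histone H3, stood at 2.47, 2.94, 4.75 and 1.60 FPKM. The D4 library was again the high one, with a log2 ratio of D8 to D4 of -1.57 (-1.69 to -1.46), and D4 missed a call against D0 at 0.94 (0.86 to 1.03). KDM1B, at 1.87, 1.54, 2.44 and 1.22 FPKM, lay just under the limit for D8 vs D4, at -0.999 (-1.17 to -0.84).

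The highest mean among the demethylases belonged to KDM1A (chromosome 6, bases 80903407 to 80971875), the flavin enzyme of corepressor complexes also known as LSD1, with 30.003, 21.0, 25.6 and 19.1 FPKM. It was highest at D0 and lower at D2 by a log2 ratio of -0.51 (-0.57 to -0.46). KDM5B (chromosome 10, bases 24739115 to 24831537), which removes the methyl mark of active promoters, followed with 16.2, 17.7, 20.7 and 20.6 FPKM. Relative to the X-linked KDM5C (12.5, 12.4, 13.6 and 10.6 FPKM), KDM5B stood at ratios of 1.29, 1.42, 1.52 and 1.95, and the 95% counting interval at D8 (1.87 to 2.03) lay above those at the other stages. KDM5A, the retinoblastoma-binding member of the same family, was at 5.64, 9.01, 9.75 and 6.27 FPKM, and was higher at D4 than at D0 by a log2 ratio of 0.79 (0.73 to 0.85).

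On a list of 14 other demethylases and dioxygenases 13 were reliably expressed, and 4 of them were called higher at D4 vs D0 (against 10.4% of all mRNAs), or 2 with scaling by the median of ratios (against 9.18%), RIOX1 and RIOX2. RIOX2 was at 11.4, 25.4, 24.8 and 15.8 FPKM, RIOX1 at 2.13, 3.07, 4.82 and 2.07 FPKM and JMJD4 at 6.84, 11.07, 14.2 and 8.12 FPKM. RIOX1 and RIOX2 are oxygenases of ribosomal proteins, and JMJD4 hydroxylates a translation termination factor, so the members named do not act mainly on histones.

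**Figure D3:**
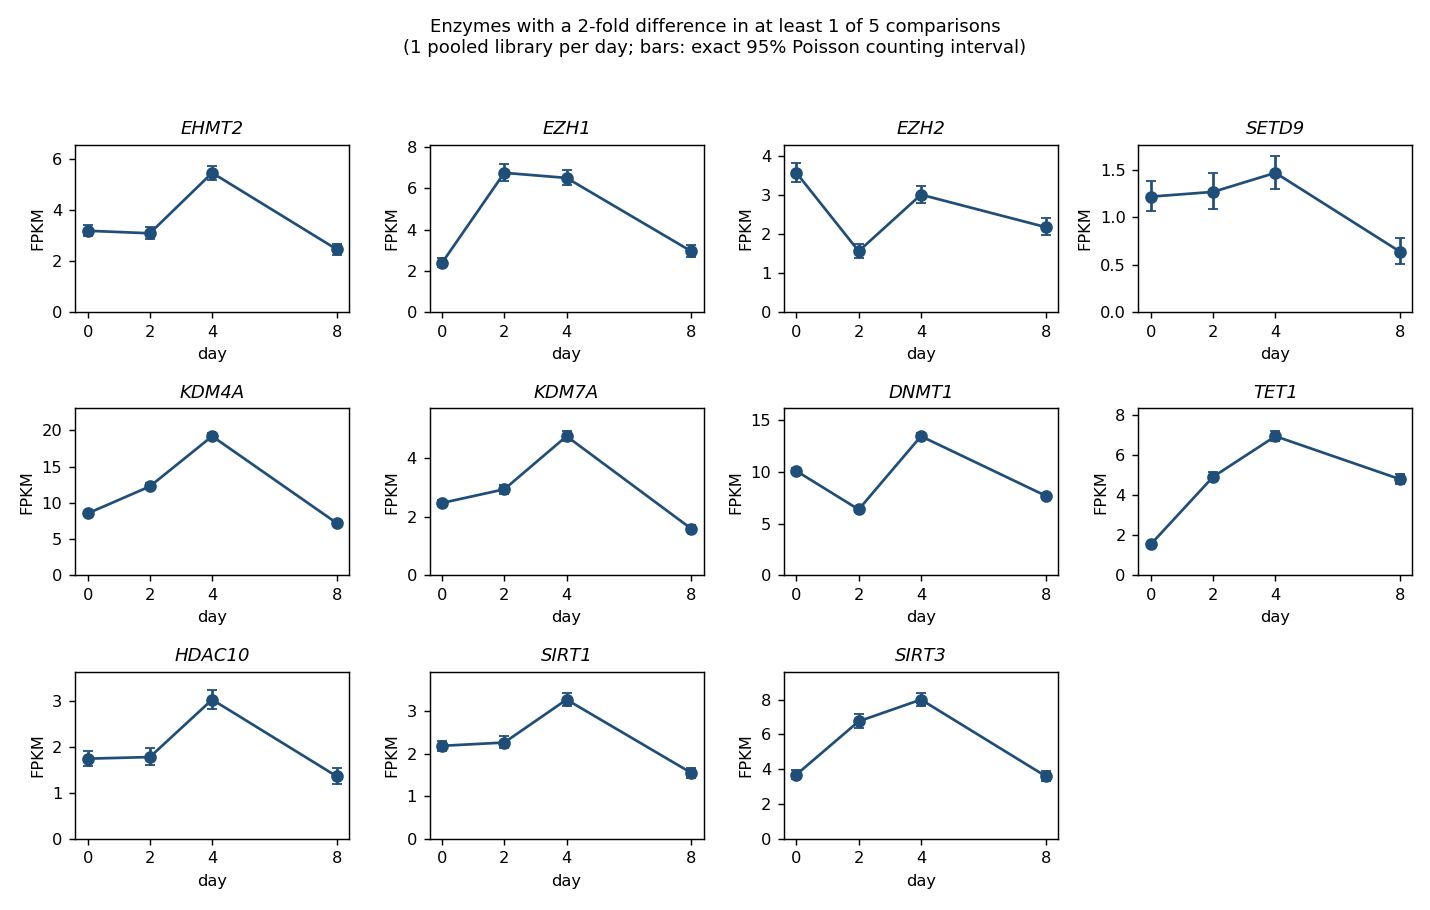
FPKM by day of the 11 enzymes with a 2-fold difference in at least 1 of the 5 comparisons, with bars for the exact 95% Poisson interval of the reads. The D4 library is the highest for all but EZH1 (6.76 FPKM at D2) and EZH2 (3.56 FPKM at D0).

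TET1 (chromosome 14, bases 71675671 to 71812732), which oxidises methylcytosine, showed the largest ratio of the 47 enzymes, with 1.55, 4.92, 6.94 and 4.80 FPKM. All 3 later libraries were above D0. The log2 ratio to D0 was 1.66 at D2 (1.54 to 1.79), 2.15 at D4 (2.05 to 2.28) and 1.62 at D8 (1.503 to 1.75), and TET1 was the enzyme called in each of the 3 comparisons with D0. Its ratios stayed past 2-fold with pseudocounts of 0.1 and 1 and with both other scalings.

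TET2 was at 1.69, 2.04, 2.96 and 2.30 FPKM and was not called, and TET3, at 0.530, 0.226, 0.348 and 0.257 FPKM, was under the level taken as reliable. TET1 made up 41.2% of the summed FPKM of the 3 TET genes at D0 and 68.4%, 67.7% and 65.2% at D2, D4 and D8. Relative to TET2 it stood at 0.920 at D0 (95% counting interval 0.842 to 1.01) and at 2.41 at D2 (2.24 to 2.59), 2.35 at D4 (2.23 to 2.47) and 2.09 at D8 (1.94 to 2.24). The order of TET1 and TET2 at D0 was thus within counting error, and TET1 was above TET2 at the other stages. IDH1, which makes the 2-oxoglutarate that TET and KDM enzymes use, was at 39.0, 50.9, 91.2 and 64.7 FPKM and was called higher at D4 vs D0, at 1.23 (1.198 to 1.25).

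DNMT1 (chromosome 2, bases 68981564 to 69040364), which copies DNA methylation to the new strand after replication, stood at 10.1, 6.37, 13.4 and 7.69 FPKM. It was lowest at D2 and highest at D4, with a log2 ratio of D4 to D2 of 1.08 (1.01 to 1.15), or 0.96 with scaling by the median of ratios, which is under 2-fold. At D2 vs D0 the log2 ratio was -0.66 (-0.74 to -0.59). UHRF1, which brings DNMT1 to replicated DNA, had the same high and low libraries with a wider span, at 1.61, 0.339, 3.38 and 1.31 FPKM, and a log2 ratio of D4 to D2 of 3.28 (2.99 to 3.65). HELLS, a remodeller needed for DNA methylation, was at 2.74, 2.60, 5.32 and 2.46 FPKM, and the replication clamp PCNA at 68.1, 59.0, 118 and 65.2 FPKM. These 3 were the genes called higher at D4 vs D2 among 18 reliably expressed partners of DNA methylation (against 4.24% of all mRNAs). The list itself had a median log2 ratio of 0.09 in that comparison, equal to that of all mRNAs, and UHRF1 was the 1 of the 18 still called with either of the other scalings. The summed proliferation markers given above were also lowest at D2 and higher at D4, with their highest sum at D0. At D4 vs D0, 2 of the 18 reliably expressed ones, MCM3 and CCNE2, were called higher and 5 lower (against 10.4% and 8.81% of all mRNAs). The part of proliferation in the level of DNMT1 was not tested.

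Enzymes that methylate DNA anew were low by FPKM. DNMT3A was at 0.653, 0.781, 1.26 and 0.660 FPKM, DNMT3B at 0.183 to 0.438 FPKM and the cofactor DNMT3L at 0.648, 0.258, 0.0975 and 0.210 FPKM, so none of the 3 was reliably expressed. In FPKM, DNMT1 exceeded DNMT3A by 15.4 times at D0 (95% counting interval 14.3 to 16.6), 8.15 times at D2 (7.49 to 8.87), 10.6 times at D4 (10.1 to 11.2) and 11.7 times at D8 (10.7 to 12.8). The D2 library, where DNMT1 was lowest, had the lowest ratio. The size of these ratios depends on the lengths behind FPKM, 17086 bases for DNMT3A and 5971 for DNMT1. In reads, DNMT3A had 841, 734, 1605 and 610, and DNMT1 had 4537, 2090, 5967 and 2487.

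**Figure D4:**
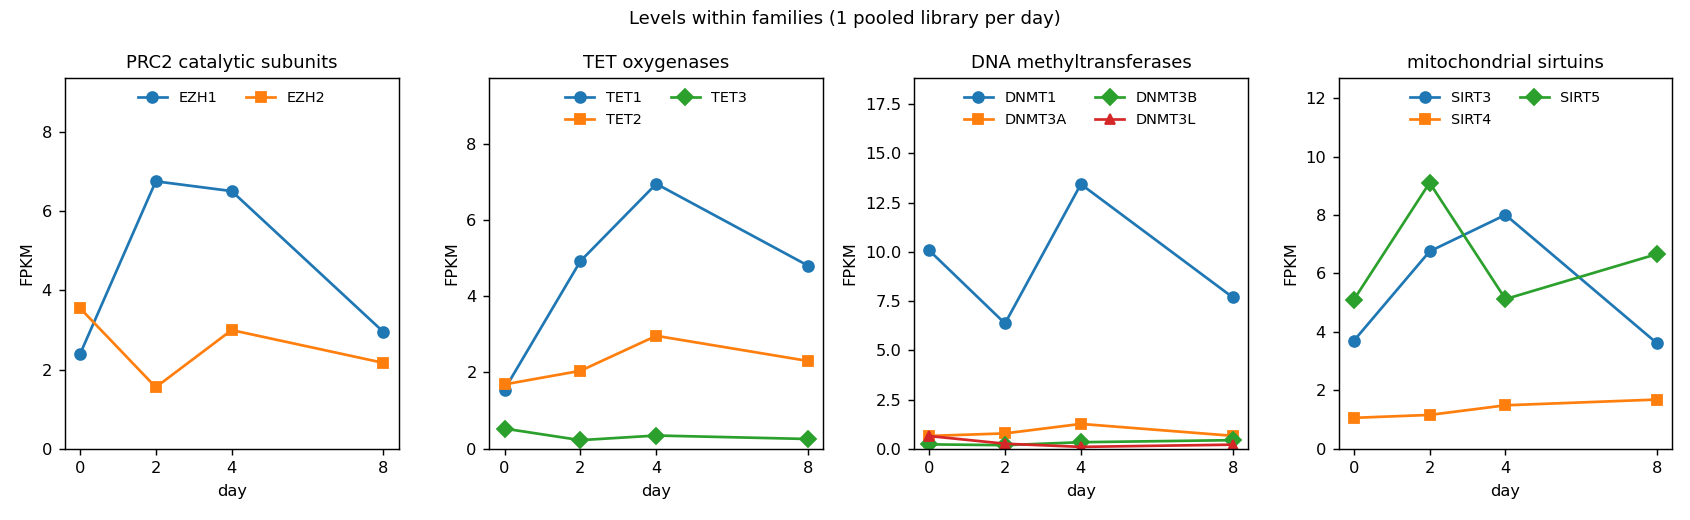
FPKM by day of EZH1 and EZH2, the TET genes, the DNMT genes and the mitochondrial sirtuins, 1 pooled library per day and no error bars. EZH1 and EZH2 cross between D0 and D2, TET1 parts from TET2 after D0, DNMT1 dips at D2 (6.37 FPKM), and SIRT5 (9.10 FPKM at D2) and SIRT3 (8.005 FPKM at D4) peak in different libraries.

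HDAC2 (chromosome 1, bases 79867713 to 79901597) was the most abundant of all 61 enzymes by mean FPKM, with 47.8, 47.8, 47.2 and 39.1 FPKM, a span of 1.22-fold. HDAC1 (chromosome 6, bases 88749611 to 88785220), which shares the Sin3, NuRD and CoREST complexes with it, was at 36.4, 25.5, 29.5 and 25.9 FPKM. HDAC1 was highest at D0, and at D2 it was lower by a log2 ratio of -0.52 (-0.58 to -0.45), whereas HDAC2 had a ratio of 0.00 (-0.05 to 0.05). HDAC2 relative to HDAC1 was accordingly 1.31 at D0 (95% counting interval 1.27 to 1.36), 1.88 at D2 (1.79 to 1.96), 1.60 at D4 (1.54 to 1.66) and 1.51 at D8 (1.44 to 1.58). HDAC3, the catalytic subunit of the NCOR complexes, was at 10.5, 13.4, 17.8 and 10.1 FPKM. The 3 class I genes made up 76.4% to 81.2% of the FPKM summed over the 11 HDAC genes.

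HDAC10 (chromosome 5, bases 439142 to 445337), a class IIb enzyme that acts on polyamines, was the HDAC gene called, at 1.74, 1.78, 3.03 and 1.36 FPKM with a log2 ratio of D8 to D4 of -1.15 (-1.36 to -0.95). HDAC11, the class IV enzyme, was at 2.36, 4.66, 2.93 and 2.58 FPKM and missed a call at D2 vs D0 with 0.98 (0.81 to 1.16), which passed 2-fold with either of the other scalings. Of the class IIa genes, whose products shuttle between cytoplasm and nucleus, HDAC5 and HDAC7 were low at D2. HDAC4, of the same class but not reliably expressed, was instead highest at D2, at 0.887, 1.32, 1.24 and 0.609 FPKM. HDAC5 stood at 18.1, 9.70, 10.04 and 14.4 FPKM with a log2 ratio of D2 to D0 of -0.90 (-0.97 to -0.83), and HDAC7 at 3.38, 1.897, 2.45 and 2.28 FPKM with -0.83 (-0.998 to -0.67). HDAC9, of the same class, was far under the level taken as reliable, at 0.0836, 0.00852, 0.0172 and 0.0991 FPKM, with 242, 18, 49 and 206 reads. Its FPKM rests on a length of 38401 bases, which lowers the value for a given number of reads. HDAC5 and HDAC9, like the summed markers of smooth muscle and myofibroblasts, were higher at D0 and D8 than at D2 and D4, and the part of those cells or genes in the level of the 2 deacetylases was not tested.

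Of the partners of the deacetylases in the Sin3, NuRD, CoREST and NCOR complexes, 23 of 26 were reliably expressed and 3 were called in at least 1 comparison, against 29.9% of all mRNAs. MTA3, of NuRD, was lower at D2 vs D0 and D4 vs D0 with 2.98, 1.12, 1.08 and 2.06 FPKM, ING2, of Sin3, was higher at D2 vs D0 with 7.23, 16.9, 12.3 and 6.59 FPKM, and GATAD2B, of NuRD, was lower at D8 vs D4 with 1.402, 1.17, 1.79 and 0.793 FPKM. With scaling by the median of ratios GATAD2B was not called (-0.93), and MTA3 was called higher at D8 vs D4 (1.15, in place of 0.93). NCOR1 (0.998 to 1.72 FPKM) was not called. Among 12 reliably expressed acetyltransferases, which act against the deacetylases, KAT6A alone was called, as lower at D8 vs D4 (8.33%, against 10.1% of all mRNAs). It stood at 2.69, 3.11, 4.46 and 1.85 FPKM, with a log2 ratio of -1.26 (-1.42 to -1.11).

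All 7 sirtuins were reliably expressed. SIRT3 (chromosome 2, bases 38465 to 55074), the main deacetylase of mitochondria, stood at 3.69, 6.76, 8.005 and 3.603 FPKM. It was high at D2 and D4 and returned at D8 to its D0 level, with a log2 ratio of D4 to D0 of 1.11 (0.998 to 1.24), of D8 to D4 of -1.15 (-1.29 to -1.02) and of D8 to D0 of -0.04 (-0.19 to 0.12). SIRT1 (chromosome 14, bases 71091167 to 71126351), a nuclear deacetylase known to restrain PPARG, was at 2.18, 2.26, 3.27 and 1.55 FPKM and was called lower at D8 vs D4, at -1.07 (-1.21 to -0.95). With scaling by the median of ratios the D8 vs D4 ratio was -0.92 for SIRT3 and -0.84 for SIRT1, and neither was called.

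SIRT2 (chromosome 6, bases 47682427 to 47703408), the sirtuin of the cytoplasm, had the highest level of the 7, with 12.6, 15.3, 15.3 and 16.0 FPKM. SIRT6 (chromosome 2, bases 74568539 to 74577774), a chromatin-bound sirtuin, was second by mean with 11.06, 5.99, 6.34 and 8.24 FPKM, and was lower at D2 than at D0 by a log2 ratio of -0.88 (-1.05 to -0.73), short of a call. SIRT6 made up 26.0% of the summed FPKM of the 7 sirtuins at D0 and 12.9% at D2. Of the other mitochondrial members, SIRT5, which removes succinyl and malonyl groups, was high at D2 alone, with 5.10, 9.10, 5.12 and 6.67 FPKM, and SIRT4 was at 1.06 to 1.69 FPKM. SIRT7, of the nucleolus, held a narrow range from 5.62 to 6.85 FPKM.

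Of 26 genes that supply methyl groups, acetyl groups or NAD+ to these enzymes, 17 were reliably expressed, and 6 of them were called higher and 1 lower at D4 vs D0 (against 10.4% and 8.81% of all mRNAs), or 5 and 1 with scaling by the median of ratios (against 9.18% and 9.97%). ACSS2, which makes acetyl-CoA from acetate, was at 4.38, 7.99, 31.0 and 35.8 FPKM. NADSYN1, an enzyme of NAD+ synthesis, was at 0.777, 1.41, 3.16 and 1.28 FPKM, and MTR, the methionine synthase, at 0.823, 1.89, 3.02 and 1.27 FPKM. Each of the 3 was higher at D4 than at D0 by a log2 ratio of at least 1.86, and at D8 ACSS2 was 0.21 above D4 while NADSYN1 and MTR were lower than at D4 by -1.30 and -1.24. Acetyl-CoA made by ACSS2 also goes into fatty acids, so the gene is not specific to histone acetylation.

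The 14 enzymes that were not reliably expressed included the large methyltransferases KMT2B and KMT2D and the SETD1A and SETD1B genes, whose highest value in a library was 0.604 FPKM (KMT2B at D4). KMT2A, HDAC4 and DNMT3A passed 1 FPKM in 2, 2 and 1 libraries, with highest values of 1.51, 1.32 and 1.26 FPKM. SETD4 (0.527 to 0.910 FPKM), KDM6B (0.144 to 0.282 FPKM) and HDAC6 (0.374 to 0.874 FPKM) stayed below 1 FPKM. All 14 were detected in all 4 libraries, with 18 (HDAC9 at D2) or more reads each. KDM6B, a demethylase of the Polycomb mark, was also far below its X-linked paralog KDM6A (1.93, 2.75, 2.80 and 2.18 FPKM).

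Circular RNAs (circRNAs) form when a downstream splice site joins an upstream one, and were counted by reads across that junction, a readout that did not enter the choice of the genes. In all, 102 of the 8623 circRNAs lay inside 28 of the 61 genes on the same strand. The genes with a circRNA were 26 of the 47 reliably expressed enzymes (55.3%), against 31.9% of all reliably expressed mRNAs. The enzymes had longer genes, with a median span of 54892 bases against 26092, and the 26 with a circRNA spanned 89564 bases at the median against 16981 for the other 21. The 102 circRNAs took 1.02%, 1.32%, 1.74% and 1.25% of all junction reads by stage, and 60 of them were listed in 1 library.

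At least 20 junction reads in a library were reached by 9 of the 102, and each of the 9 differed by at least 2-fold, in junction reads scaled by the library's total, in at least 1 of the 5 comparisons, against 79.2% of 879 circRNAs with as many reads. By comparison, 4 were higher and 1 lower of 9 at D2 vs D0 (against 23.3% and 23.6%), and 2 were higher and 3 lower of 8 at D4 vs D2 (against 21.5% and 20.4%). At D8 vs D4, 0 were higher and 1 lower of 7 (against 12.5% and 25.5%), at D4 vs D0 3 higher and 3 lower of 8 (against 24.1% and 28.7%), and at D8 vs D0 3 higher and 1 lower of 7 (against 15.3% and 32%). A circRNA listed at 0 had fewer than 2 junction reads, the minimum set by the authors.

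TET1 gave the most junction reads of the 28 genes, 723 over the 4 libraries. Its main circRNA, ssc_circ_0007137 (chr14:71765050-71773116, plus strand), had 62, 117, 315 and 74 junction reads. Like the mRNA it was highest at D4, with a ratio of D4 to D0 of 5.29 (95% counting interval 4.02 to 7.07), and D4 was 3.12 times D8 (2.42 to 4.08). A second circRNA that starts at the same base, ssc_circ_0007136 (chr14:71765050-71767362), had 21, 57, 28 and 41 junction reads and was instead highest at D2, at 3.28 times D0 (1.96 to 5.70). The second made up 25.3% of the pair's junction reads at D0 (exact binomial 95% interval 16.4% to 36.0%), 32.8% at D2 (25.8% to 40.3%), 8.16% at D4 (5.49% to 11.6%) and 35.7% at D8 (26.9% to 45.1%). Its share at D4 thus had an interval below those of the other 3 stages. Per 1000 reads on the TET1 gene there were 109, 99.1, 105 and 68.2 junction reads, and since reads of circularised exons also count toward the FPKM of a gene, their part in the FPKM of TET1 was not tested.

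EHMT1 held 11 circRNAs with 129, 102, 123 and 93 junction reads in sum, an even level once scaled (23.2 to 24.8 per 10000 junction reads), but single circRNAs went different ways. ssc_circ_0008553 had 27, 35, 46 and 46 junction reads and was 2.42 times higher at D8 than at D0 (1.47 to 4.05). ssc_circ_0008559 had 56, 24, 22 and 24 junction reads and was 2.44 times lower at D4 than at D0 (1.47 to 4.20). The first made up 32.5% of this pair at D0 (22.6% to 43.7%) and 59.3%, 67.6% and 65.7% at D2, D4 and D8. ssc_circ_0008557, with 22, 4, 9 and 0 junction reads, was at least 5.17-fold lower at D8 than at D0, with 3 junction reads taken as the limit of detection in the D8 library.

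In KDM4C, ssc_circ_0000469 (chr1:215371012-215389275) had 22, 27, 84 and 61 junction reads and was 3.98 times higher at D4 (2.46 to 6.68) and 3.94 times higher at D8 (2.38 to 6.73) than at D0, while the gene went from 6.06 to 8.83 FPKM. In KDM5B, ssc_circ_0005008 had 56, 36, 20 and 26 junction reads and was 2.69 times lower at D4 than at D0 (1.59 to 4.73), while the gene was higher at D4, at 20.7 against 16.2 FPKM. SETD3, a histidine methyltransferase of actin with the narrowest range of the 15 methyltransferases (3.92 to 4.39 FPKM), held ssc_circ_0003630 (chr7:120464280-120473807) with 0, 22, 30 and 15 junction reads. It was at least 8.87-fold higher at D2 and at least 10.4-fold higher at D4 than at D0, with 3 junction reads taken as the limit of detection at D0. In KDM3A, ssc_circ_0001885 had 7, 20, 6 and 4 junction reads and was 3.46 times higher at D2 than at D0 (1.404 to 9.67). These 4 genes, like EHMT1, therefore had circRNAs that passed 2-fold where the gene itself did not. At large, 79.2% of circRNAs with as many reads passed 2-fold in at least 1 comparison, against 29.9% of mRNAs.

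Among the 10 with the most junction reads were 3 that never reached 20 in a library. ssc_circ_0000840 and ssc_circ_0000838 of HDAC2 had 9, 13, 16 and 12 and 18, 5, 19 and 3 junction reads, and ssc_circ_0008289 of KMT2C had 10, 14, 19 and 6. Differences at these numbers were not assessed by the 2-fold rule.

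**Figure D5:**
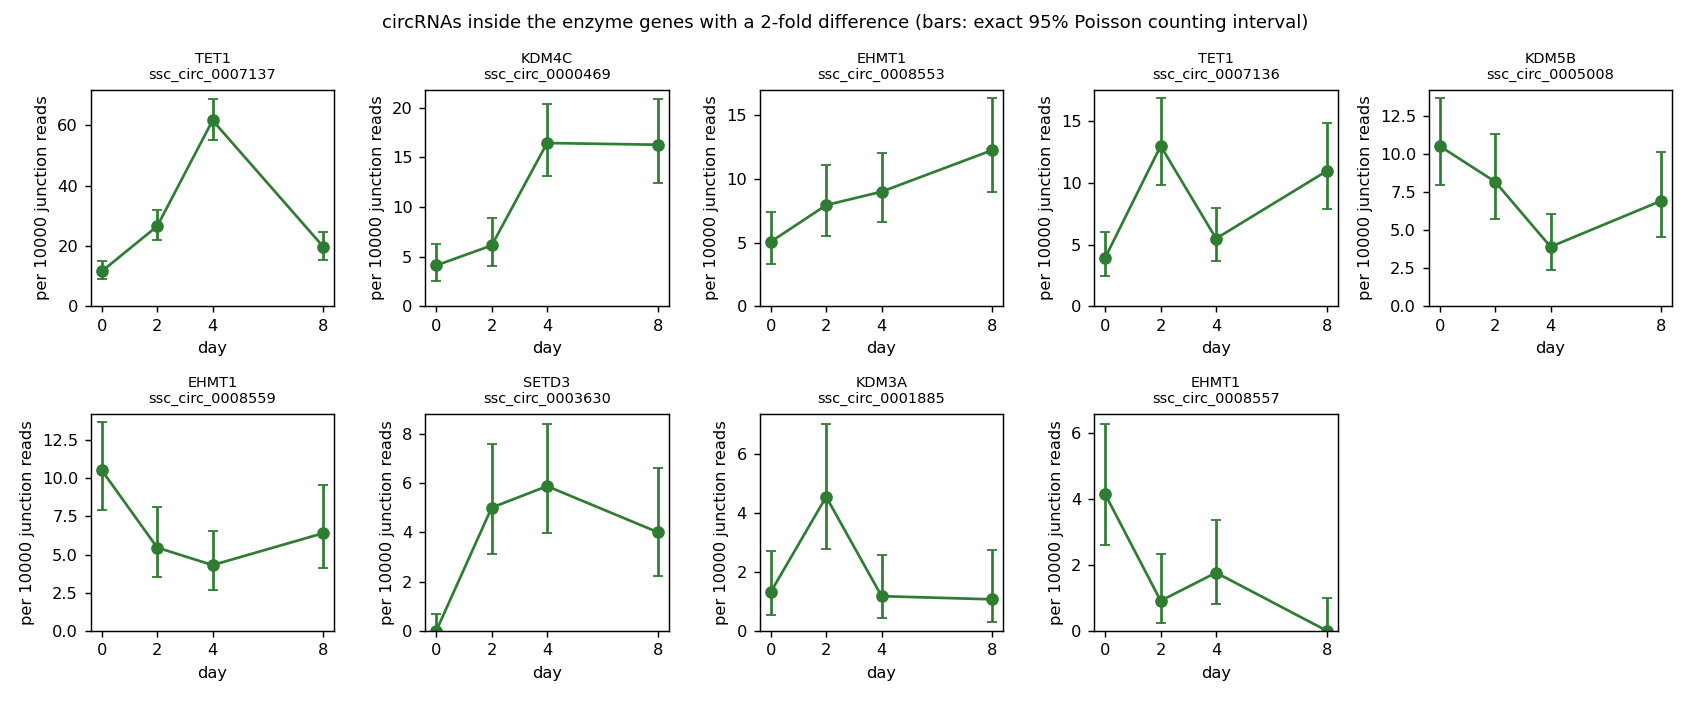
Junction reads per 10000 junction reads of the library, by day, for the 9 circRNAs inside the enzyme genes that reached 20 junction reads and a 2-fold difference, with bars for the exact 95% Poisson interval. The circRNA ssc_circ_0007137 of TET1 peaks at D4 (315 junction reads) and ssc_circ_0007136 at D2 (57), and ssc_circ_0003630 of SETD3 is listed at 0 at D0.

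Long non-coding RNAs (lncRNAs) near the enzymes were mostly scarce. Within 50 kb of 37 of the 61 genes lay 58 lncRNAs, and 8 of them were reliably expressed, each near another enzyme. LOC102165911, which overlaps SIRT4 on the opposite strand, was at 37.2, 26.2, 19.5 and 16.7 FPKM, lower at D8 than at D0 by a log2 ratio of -1.15 (-1.24 to -1.07), while SIRT4 was at 1.06, 1.16, 1.49 and 1.69 FPKM. MSTRG.68172, 18507 bases from SIRT5, was at 30.6, 66.0, 54.6 and 13.5 FPKM, with a log2 ratio of D2 to D0 of 1.11 (0.94 to 1.28) and of D8 to D4 of -2.02 (-2.28 to -1.77). LOC100624113, 41924 bases from EHMT2, was at 112, 259, 198 and 190 FPKM, and MSTRG.110873, 9350 bases from SETD5, at 2.19, 4.64, 2.73 and 3.22 FPKM. Both were called higher at D2 vs D0, MSTRG.110873 with a log2 ratio of 1.08 (0.69 to 1.48) from 92 reads at D0 and 142 at D2. LOC102162389, near SETD7, was at 3.32, 1.94, 1.45 and 2.68 FPKM and was called lower at D4 vs D0. The other 3, LOC110256227 across the start of SETD2 (0.770 to 1.25 FPKM), MSTRG.89453 across HDAC9 (1.47 to 2.31 FPKM) and a lncRNA row named MRPS12 near SIRT2 (38.8 to 52.7 FPKM), were not called. The share of all reliably expressed lncRNAs past 2-fold is not given here, so these calls cannot be set against lncRNAs at large. Their values with other scalings are not given either.

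Overlap with genes on the opposite strand touched 7 of the 61 enzymes beside those with lncRNAs. SIRT1 overlaps HERC4 (31.0, 18.5, 18.3 and 19.7 FPKM) and KDM1B overlaps DEK (33.1, 9.28, 13.5 and 19.5 FPKM). KDM2B overlaps RNF34 (2.35, 4.80, 4.68 and 2.64 FPKM) and HDAC7 overlaps SLC48A1 (1.64, 3.53, 3.06 and 1.62 FPKM). In every library SIRT1, KDM1B and KDM2B were below these neighbours, and HDAC7 was below SLC48A1 at D2 and D4. The kit keeps the strand, but whether strand was used in counting is not given in the sources used here, and without it reads in the shared stretch cannot be told apart.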

How the data were processed

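The authors removed low-quality reads, aligned the others to Sscrofa11.1 with HISAT2 2.0.5, and deposited FPKM per gene. For circRNAs the authors ran CIRI on BWA-MEM alignments, kept junctions seen in 2 or more reads, and deposited a signal, SRPBM, which is junction reads scaled by the mapped reads. How reads were assigned to genes, and whether strand was used, is not given in the sources used here. The fragment totals behind FPKM were computed from single-exon tRNA genes, and reads per gene as the smallest whole-base length that gave whole reads in all 4 libraries (61 of 61 enzymes). These could be a whole fraction of the true reads. For SRPBM, 100% of values were whole junction reads (within 0.01), 37480 to 53207 per library. The 95% intervals are exact (Clopper-Pearson for ratios) and cover counting error only, since neither piglets nor preparations were replicated.

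Genes with at least 1 FPKM in at least 3 of 4 libraries were kept, as in the study, and called at a 2-fold ratio of FPKM + 0.01, which understates ratios of low genes. No test was made with 1 library per stage. circRNAs were assigned to a gene by both ends and strand, and lncRNAs within 50 kb. All 61 enzymes matched the RefSeq table by symbol, start and end. Named are all called enzymes, the 2 with the highest mean FPKM per role, up to 3 called genes per list by range, the 10 circRNAs with most reads and those called, and reliably expressed lncRNAs; others named are those near a limit or of the same family, chosen after their values were seen. The enzymes and lists were chosen with earlier results of these data known. Python 3.11.15, numpy 2.4.6, pandas 2.3.3, scipy 1.17.1 and matplotlib 3.10.9 were used, and the computation was tested on simulated data. Promoter motifs were not analysed here.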

Additional observations from a re-analysis of the deposited data

How the results depend on the processing

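With 1 library per stage no replicate could be left out, and the spread among piglets or preparations is not known. No paired analysis was possible because each stage has 1 pooled library. Depth limits the circRNAs: 9 of 102 in the enzymes, and 879 of all 8623, reached 20 junction reads in a library. With 10 junction reads as the minimum 28 circRNAs differed by 2-fold, in place of 9, and the share of all circRNAs at that minimum is not given here. With a window of 10 kb 4 reliably expressed lncRNAs lay near an enzyme, in place of 8. Without the filter on low values the enzymes called numbered 6 at D2 vs D0 (2 higher, 4 lower), 2 at D4 vs D2 (1 and 1), 12 at D8 vs D4 (2 and 10), 6 at D4 vs D0 (4 and 2) and 4 at D8 vs D0 (1 and 3), so that enzymes under the level taken as reliable broke the single direction of the last 3 comparisons and of D4 vs D2. The share of all mRNAs called without the filter is not given here, so the rise in these numbers cannot be set against mRNAs at large. With a limit of 1.5-fold they numbered 11 at D2 vs D0, 11 at D4 vs D2 and 17 at D8 vs D4 (against 35.7%, 14.6% and 35.9% of all mRNAs), and against D0 12 for D4 and 8 for D8 (against 39.5% and 21.5%). With a pseudocount of 1 they numbered 0 at D4 vs D2 and 2 at D8 vs D4, where the median log2 ratio of the enzymes was -0.27. Scaling by the median of ratios gave 0 at D4 vs D2 and 2 at D8 vs D4, with medians of 0.11 at D4 vs D2, -0.13 at D8 vs D4 and -0.0923 at D8 vs D0, and equal protein-coding sums gave a median of 0.16 at D4 vs D2. Of 17 calls of an enzyme in a comparison, each tried under 2 other pseudocounts and 2 other scalings (68 values), 0 reversed and 16 fell under 2-fold, 9 with a pseudocount of 1 and 7 with scaling by the median of ratios. A pseudocount of 1 draws the ratios of low genes toward 0 by construction, and the cause of the other shifts was not tested.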
